A study of Caenorhabditis elegans with 2 samples.

Results

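The genes described here are 7 of the 19973 protein-coding genes of Caenorhabditis elegans: hmgs-1, hmgr-1, mvk-1, fdps-1, fnta-1, fntb-1 and coq-1, which encode enzymes of the mevalonate pathway, of protein prenylation and of the first step towards ubiquinone. They were chosen by name, with the signal and rank of the summits near them in these same peak lists already known, so their signals and ranks are given as a description and no test was made on them. The measurement was ChIP-seq of an eGFP-tagged R02D3.7 protein in whole L2 larvae, a mixed pool of both sexes, in 1 group with 2 biological replicates and no other condition. The strain was OP218, which carries the unc-119(ed3) mutation on chromosome III and the integrated transgene wgIs218, the source of the tagged protein. The labels do not give the promoter of the transgene or the cells that express it. The annotation used here names the tagged gene rcat-1.

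The mevalonate pathway turns acetyl-CoA into isoprenoid units. HMG-CoA synthase and HMG-CoA reductase make mevalonate, mevalonate kinase and later enzymes phosphorylate and decarboxylate it, and farnesyl diphosphate synthase joins the resulting units into farnesyl diphosphate. From there the chains go to several uses: farnesyltransferase and geranylgeranyl transferase attach them to small GTPases and other proteins, polyprenyl diphosphate synthase lengthens them for the tail of ubiquinone, and other enzymes build dolichol, the lipid on which sugar chains are assembled. C. elegans does not make sterols from this pathway and takes them from its food. Many of its transcripts are also trans-spliced to a leader, so that an annotated 5′ end can be a splice site and not the place where transcription starts.

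A summit, the point of highest signal in a called region, was assigned to a gene when it lay no more than 1000 bp upstream or 200 bp downstream of one of its annotated 5′ ends, the gene's window. Of the 7 genes, hmgs-1 and fnta-1 held a summit of the IDR set, named for the irreproducible discovery rate, a measure of how well ranks are repeated between replicates. Among all protein-coding genes 3.47% held one. At both genes the summit lay upstream, on the side of a neighbour that runs the other way. In both cases the neighbour's annotated 5′ end was the nearer one. At hmgs-1 the summit lay between the genes, and at fnta-1 just inside the neighbour. When each summit was given only the gene with the nearest annotated 5′ end, 0 of the 7 genes remained, against 2.25% of all protein-coding genes. Both peaks then went to the neighbours, F25B4.4 and cogc-8. The annotated ends of hmgs-1 and fnta-1 lie 2 and 9 bp before their start codons, and such an end can be a splice site. Which gene of each pair starts transcription nearer to the summit is therefore not known. Whether binding at either place acts on one gene of the pair, on both or on neither was not tested.

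Both peaks carried the 8-base word CGTAAATC near the summit, and it is shown with the bases around it so that the peaks can be compared. The word came from an earlier description of these same peaks, so its presence here is no independent finding. Each line gives 30 bases around the word, 5′ to 3′, from the RefSeq copy of the WBcel235 assembly (ce11), with the word in capitals. The positions are V:5684755-5684784 on the minus strand for hmgs-1, IV:240516-240545 on the minus strand for fnta-1, III:2401301-2401330 on the minus strand for strm-1 and IV:3803419-3803448 on the plus strand for algn-14. The last pair are genes of related lists described further on, shown because their IDR peaks also hold the word. The other genes of those lists with an IDR summit, F32D8.13 and rab-18, lack it near the summit and are not shown.
hmgs-1: tacaaatgactCGTAAATCggtttcccctc
fnta-1: cgttggctgccCGTAAATCcacatgagagc
strm-1: gtgttctttacCGTAAATCcacactccgaa
algn-14: aacgtgttgccCGTAAATCgactcggagcc
The hmgs-1 and fnta-1 stretches had no base in common directly before or after the 8 of the word. The fnta-1 and strm-1 stretches shared a run of 13 bases, ccgtaaatccaca, and those of fnta-1 and algn-14 a run of 12, tgcccgtaaatc.

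The hmgs-1 peak lay in the stretch of 283 bp that separates its 5′ end from that of F25B4.4 (V:5684590-5684872, GC content 34.3%). It is printed below on the minus strand, reading from F25B4.4 towards hmgs-1, because the summit and both matches fall within it. Capitals mark CGTAAATC and, further towards hmgs-1, the shorter word CGTAAA on the other strand, where it reads TTTACG.
F25B4.4 to hmgs-1: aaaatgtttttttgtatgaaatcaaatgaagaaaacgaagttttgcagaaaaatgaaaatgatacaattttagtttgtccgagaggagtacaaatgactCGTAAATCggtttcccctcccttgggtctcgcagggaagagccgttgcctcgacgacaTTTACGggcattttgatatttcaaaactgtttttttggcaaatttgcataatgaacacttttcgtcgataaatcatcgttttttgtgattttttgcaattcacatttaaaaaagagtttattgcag
The centre of CGTAAATC (V:5684766-5684773, minus strand) lay 20.5 bp from the summit, on the F25B4.4 side. The centre of the CGTAAA match (V:5684710-5684715, plus strand) lay 36.5 bp from it on the hmgs-1 side, so the summit sat between the matches. The bases within 50 bp of the summit were richer in GC than the stretch as a whole, at 51.5%, against a mean of 45.8% ± 7.78 over all IDR summits (SD over 542 windows).

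hmgs-1 encodes HMG-CoA synthase, which condenses acetyl-CoA with acetoacetyl-CoA at the entry of the pathway. The gene lies on chromosome V (5682721 to 5684589, minus strand) and has 1 annotated 5′ end, 2 bp before its start codon. Its peak (V, 5684604 to 5684884, 281 bp wide) had a signal of 943 in the joined list, the candidate list called on the reads of both replicates together. The signal is the value the authors' peak caller gave each region, on a scale that is not stated, so it is compared only within a list. The peak's signal was 676 in the replicate 1 list and 264 in the replicate 2 list. It ranked 6 in the joined list and 6 in each replicate list.

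The replicates also placed the hmgs-1 summit almost on the same base. It lay at 5684749 in the joined and replicate 1 lists, 160 bp upstream of hmgs-1, and at 5684745 in the replicate 2 list, 156 bp upstream. The distance of 4 bp between replicates compares with a median of 21 bp over the 528 IDR peaks with a region in both lists (quartiles 9 and 45) and of 12 bp over the 100 strongest. The 5′ end of F25B4.4, which encodes Elongator complex protein 6, lay 124 bp from the joined summit. The difference of the distances to the 5′ ends of both genes is small beside the width of the peak, and the region as called overlapped both the stretch between the genes and the first bases of F25B4.4.

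In the joined list, 10 protein-coding genes had a higher summit in their window than hmgs-1, which is 0.117% of the 8579 genes with any. The peak of rank 5, shared by rbc-2, ndua-8 and Y54F10AM.15, had signals of 1140 in the joined list, 831 in replicate 1 and 313 in replicate 2. The peak of rank 7, at exos-2, which encodes a subunit of the RNA exosome, had 769, 576 and 193 in the same lists. In each replicate the hmgs-1 peak stood between these, so the order of the 3 peaks was the same in both replicate lists. Within 10 kb of the hmgs-1 summit the joined list held 9 other candidates, and the highest of them had a signal of 23.4 at rank 2244. The peak therefore stood alone among far lower regions.

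fnta-1 encodes the alpha subunit that farnesyltransferase and the type-1 geranylgeranyl transferase share. It occupies IV:237591-240307 on the minus strand, with its only annotated 5′ end 9 bp before the start codon. Its peak (IV, 240340 to 240669, 330 bp wide) had a signal of 180 in the joined list, 135 in replicate 1 and 50.4 in replicate 2. Its ranks in these lists were 96, 93 and 85. In the joined list 140 genes, or 1.63% of those with a summit, had a higher one, so the peak stood well below that of hmgs-1.

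The fnta-1 summit lay at 240505 in the joined and replicate 2 lists, 198 bp upstream of fnta-1, and at 240513 in replicate 1, 206 bp upstream. The 8 bp between replicates are again below the median over the IDR set. The neighbour cogc-8, which encodes a subunit of the conserved oligomeric Golgi complex, starts 143 bp from fnta-1 and runs the other way. The summit lay 54 bp inside it, in its 5′ UTR, and so beyond the shared stretch and on the far side of the cogc-8 5′ end as seen from fnta-1. CGTAAATC (IV:240527-240534, minus strand) lay 25.5 bp from the summit, also in the 5′ UTR of cogc-8. The GC content around the summit was 47.5%, close to the mean of the IDR set, against 27.3% in the stretch between the genes.

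**Figure D1:**
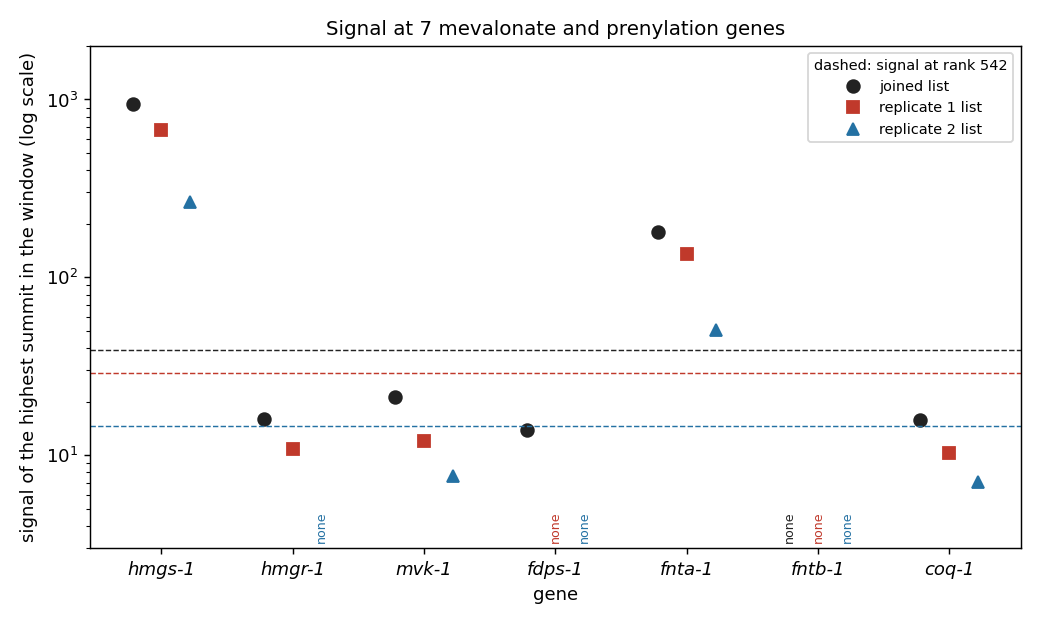
Signal of the highest summit in each gene's window (vertical axis, log scale) in the joined, replicate 1 and replicate 2 lists, with dashed lines at the signal of rank 542 in the list of the same colour; "none" marks a list with no summit in the window. In all 3 lists hmgs-1 and fnta-1 sit above the line of their list, and every other summit shown sits below it.

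The signal of replicate 2 was lower than that of replicate 1 at both peaks, by about the ratio seen over the whole set. Replicate 2 over replicate 1 was 0.391 at hmgs-1 and 0.372 at fnta-1, against a median of 0.362 over 528 IDR peaks (quartiles 0.281 and 0.457) and 0.372 over the 100 strongest. The depth of either library is unknown, so this ratio does not compare binding between replicates. Taking the 542 strongest regions of each replicate alone, hmgs-1 and fnta-1 were again the 2 of 7 genes with a summit, against 3.46% of all protein-coding genes for replicate 1 and 2.77% for replicate 2. These lists share their reads with the IDR set, so they are the same observation seen in its parts.

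The other 5 genes had no IDR summit. The IDR set is the upper 542 regions of the joined list by signal, and its lowest signal was 39.1. Of the members, fnta-1 was nearest to this limit from above (signal 180, rank 96) and mvk-1 from below (signal 21.3, rank 3427), so none of the 7 lay close to it. Any joined candidate at all was found for 6 of the 7 genes, against 43.0% of all protein-coding genes. The count was 5 of 7 for replicate 1, against 42.6%, and 4 of 7 for replicate 2, against 41.9%. The lists of 30000 candidates hold peaks and background by design, as input to the IDR step, so a candidate alone is not a peak.

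mvk-1 carries the symbol of mevalonate kinase, which phosphorylates mevalonate, and RefSeq describes its product only as a GHMP kinase C-terminal domain protein. The gene lies on chromosome III (6124023 to 6136278, minus strand) and has 5 annotated 5′ ends. Its joined candidate (III, 6132147 to 6132476) lay in an intron of the gene, 565 bp upstream of an internal 5′ end at 6131747. Its signal was 21.3 in the joined list, where the median candidate had 14.9 (quartiles 13.02 and 17.98), and 23.1% of the genes with a summit had a higher one. In replicate 1 the gene had a summit of signal 12.1 at rank 8598, 598 bp upstream, and another of 8.83 at rank 22477, 823 bp upstream of a different 5′ end. In replicate 2 it had one of 7.66 at rank 9623, 532 bp upstream. The rank in the joined list was better than in either replicate, and the nearest summits of the replicates lay 66 bp apart.

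hmgr-1 encodes HMG-CoA reductase, the rate-limiting enzyme of the pathway in mammals and the target of statins. It lies on chromosome III (7359498 to 7362129, plus strand), and 402 bp separate its 5′ end from that of eco-1, which encodes an N-acetyltransferase and runs the other way. A joined candidate of signal 15.99 at rank 11784 lay between the genes, 306 bp upstream of hmgr-1 and 97 bp upstream of eco-1. Replicate 1 had it at the same base, with a signal of 10.8 at rank 12626, and replicate 2 had no candidate in the window. About as many genes had a higher summit as had a lower one, with 51.2% of them above. The nearest IDR summit was 140185 bp away.

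The hmgr-1 window is shown as the contrast to that of hmgs-1: it has the same arrangement of genes facing apart but a signal near the middle of the candidates. The stretch runs 50 bp to each side of the joined summit (III:7359142-7359242, plus strand, GC content 38.6%) and holds none of the words searched, so no base is in capitals.
hmgr-1: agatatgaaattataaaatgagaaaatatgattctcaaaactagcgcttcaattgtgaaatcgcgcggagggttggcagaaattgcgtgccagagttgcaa
Absence of a word says only that these letters are not in this window.

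fntb-1 encodes the beta subunit of farnesyltransferase, which pairs with the product of fnta-1. It lies on chromosome V (14447651 to 14449593, plus strand), 360 bp from the 5′ end of dlat-1, which encodes a subunit of the pyruvate dehydrogenase complex and runs the other way. No candidate of any list lay in its window. The nearest joined candidate was 4352 bp from its 5′ ends, with a signal of 15.7 at rank 12706, and the nearest IDR summit was 91713 bp away. Of the farnesyltransferase subunits, fnta-1 thus held an IDR summit. By contrast, fntb-1 was the only one of the 7 genes with no candidate in any list. Among all protein-coding genes 3.47% held an IDR summit and 43.0% any joined candidate, so lacking both is common.

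fdps-1 encodes farnesyl diphosphate synthase. It lies on chromosome I (11917806 to 11923915, minus strand) and has no oppositely directed neighbour within 1000 bp upstream. The only candidate in its window was one of the joined list, with a signal of 13.8 at rank 19122, 113 bp upstream, and neither replicate list had one there. Of the genes with a joined summit, 73.3% had a higher one. An IDR peak of rank 102 with a signal of 171 lay 6246 bp from its 5′ end, outside the window, and in the windows of wve-1 and R06C1.4.

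coq-1 encodes polyprenyl diphosphate synthase, which makes the side chain of ubiquinone. It lies on chromosome I (5412841 to 5415629, minus strand). Its joined candidate had a signal of 15.8 at rank 12270, 464 bp upstream, with 52.8% of the genes with a summit above it. The replicates placed their candidates elsewhere. Replicate 1 had a signal of 10.2 at rank 15208, 297 bp upstream, and replicate 2 had 7.10 at rank 12212, 648 bp upstream, and 5.80 at rank 21064, 27 bp upstream. No pair of these summits lay as near to each other as the replicate summits of hmgs-1 or fnta-1 did.

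**Figure D2:**
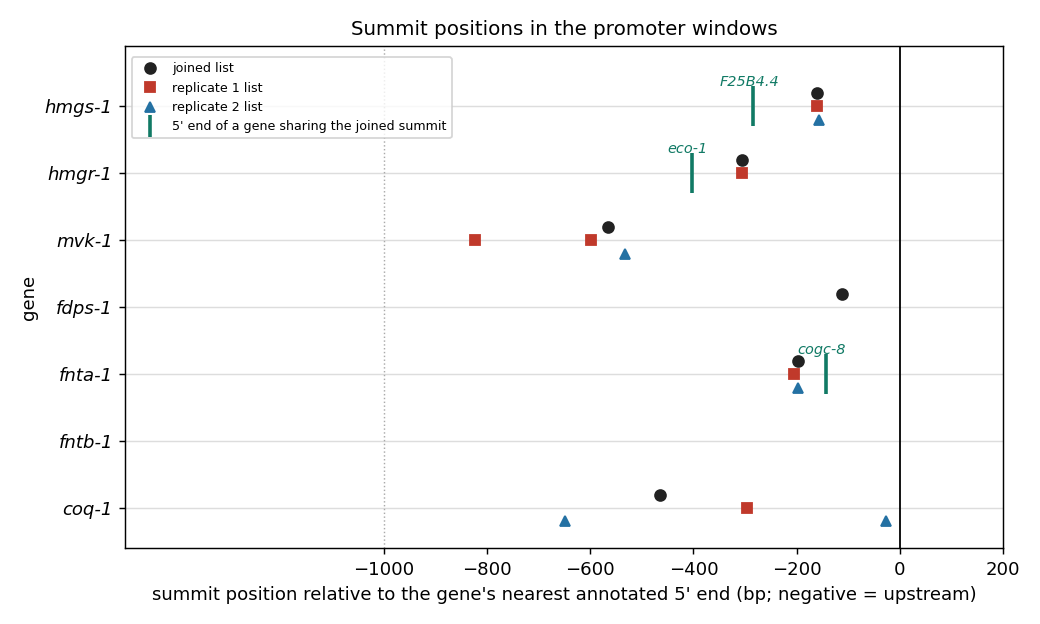
Position of each summit relative to the gene's nearest annotated 5′ end, in bp with negative values upstream, for the joined, replicate 1 and replicate 2 lists; green ticks mark the 5′ end of a gene that shares the joined summit, and the dotted line marks the edge of the window. The summits of hmgs-1 and fnta-1 fall within 8 bp of each other across lists, while those of mvk-1 and coq-1 are spread out and fntb-1 has none.

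The order of the 7 genes by joined signal was hmgs-1 (943), fnta-1 (180), mvk-1 (21.3), hmgr-1 (15.99), coq-1 (15.8), fdps-1 (13.8) and fntb-1 (no candidate). In both replicates hmgs-1, fnta-1 and mvk-1 came first, in this order. In replicate 1 mvk-1 (12.1) was followed by hmgr-1 (10.8) and coq-1 (10.2), and in replicate 2 mvk-1 (7.66) was followed by coq-1 (7.10). The replicate medians over all candidates were 10.3 (quartiles 8.82 and 12.5) and 6.63 (5.62 and 8.21), so hmgr-1 and coq-1 lay close to the middle of the background lists and their order is not distinguished by these data.

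The genes with an IDR summit are both arranged head to head with a neighbour, meaning that the 5′ end of an oppositely directed gene lies within 1000 bp upstream. Of the 7 genes, 4 have such a neighbour (57.1%), against 18.8% of all protein-coding genes. The others with this arrangement, hmgr-1 and fntb-1, held no IDR summit. The 7 genes were judged by their outermost 5′ end, and all protein-coding genes by any of their 5′ ends. Of the members without such a neighbour, only mvk-1 has more than 1 annotated 5′ end, so only its label could differ. Whether the arrangement bears on the presence of a peak was not tested. Over the whole IDR set, 454 of 542 summits lay in promoter windows. Of these 454, 217 (47.8%) lay in the windows of both genes of an oppositely directed pair facing apart. That share counts peaks and sets no limit of 1000 bp between the 5′ ends, so it is not comparable with the 18.8% of genes. A summit between such genes is counted for both, which raises the number of genes per peak.

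The fnta-1 peak is also the IDR peak nearest to the tagged gene. Its edge lies 12.95 kb from rcat-1 (chromosome IV, 253619 to 255429, minus strand). The joined list holds 3 candidates within 20 kb of rcat-1, and apart from the fnta-1 peak the highest had a signal of 24.7 at rank 1747. Whether DNA from this region is part of the transgene, and whether that bears on the signal, was not tested. The hmgs-1 peak lies on chromosome V, and whether the transgene bears on its signal was not tested either.

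Sequence words were then compared between these summits and others. Of the 4 words searched, ACGCGC was one and GACGCA another, while the longer CGTAAATC contains the last, which is CGTAAA. Both strands were searched. They came from an earlier description of the same peaks. Among windows reaching 50 bp to each side of the IDR summits, CGTAAATC was found in 20.8%, against 0.56% of those around the other 29458 joined candidates and 0.665% of 29769 promoter windows of the same length centred 150 bp upstream of a 5′ end. The shorter CGTAAA was in 28.0% of the IDR windows, 4.37% of the other candidates and 4.77% of promoters. ACGCGC was in 19.4% of the IDR windows and 2.5% of promoters, and GACGCA in 17.5% and 3.41%. The hmgs-1 and fnta-1 windows held CGTAAATC and, within it, CGTAAA, and neither held ACGCGC or GACGCA. At least 1 of the 4 words was in 55.0% of the IDR windows (95% Wilson interval 50.8 to 59.1, counting error only) and in 10.1% of promoters.

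The share of windows with CGTAAATC was highest among the first 100 ranks. It was 57.0% for ranks 1 to 100 (Wilson interval 47.2 to 66.3), the range that holds hmgs-1 and fnta-1, 26.0% for the next 100, 14.0% for the 100 after those, 5.0% for ranks 301 to 400 and 7.75% for 401 to 542. Below the IDR set it was 1.75% for ranks 543 to 1000 and 0.9% for 1001 to 5000. Over the 113 IDR windows with the word, its centre lay a median of 17.5 bp from the summit (quartiles 7.5 and 29.5), and the 20.5 bp of hmgs-1 and 25.5 bp of fnta-1 lie within these quartiles.

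**Figure D3:**
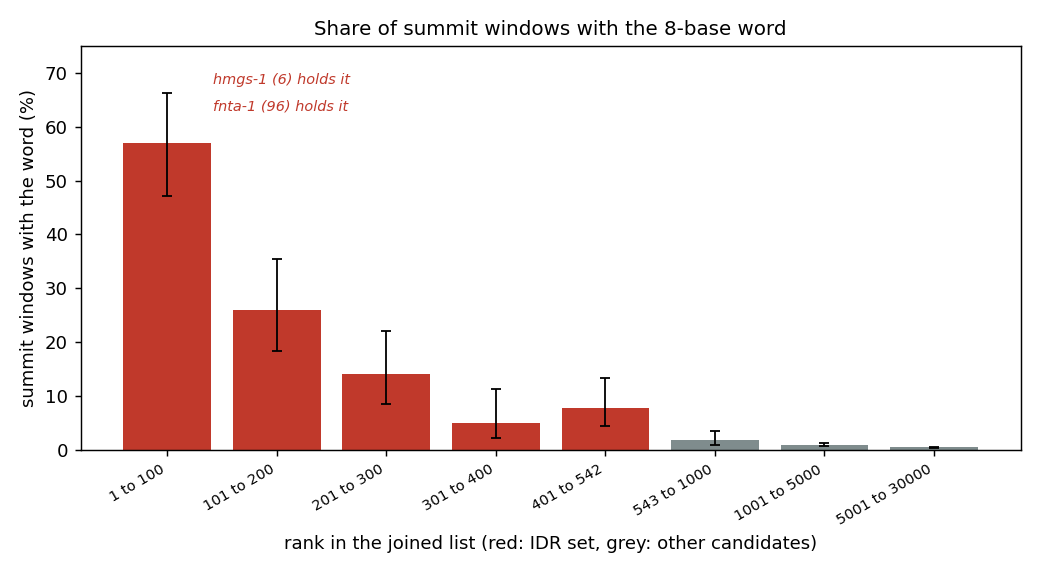
Share of windows reaching 50 bp to each side of joined summits that hold the 8-base word (vertical axis, %), by rank in the joined list; red bars are the IDR set, grey bars the other candidates, and error bars are 95% Wilson intervals. The share is 57.0% at ranks 1 to 100, where hmgs-1 (rank 6) and fnta-1 (rank 96) stand and hold the word, and 0.484% at ranks 5001 to 30000.

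The words were also searched upstream of each of the 7 genes, whether or not a candidate lay there. CGTAAATC occurred within the 1000 bp before a 5′ end of 3 of the 7 genes, hmgs-1, fnta-1 and fdps-1, against 6.28% of all protein-coding genes. The match of fdps-1 lay 749.5 bp upstream of its 5′ end. The nearest joined summit was 319.5 bp from it and had rank 14694. The nearest replicate 1 summit was 316.5 bp from it, at rank 10123, and the nearest replicate 2 summit 3026.5 bp, at rank 29669. Each of these summits lay outside the window of fdps-1. Upstream of hmgr-1 and coq-1 none of the 4 words was found, whereas 59.3% of all protein-coding genes had at least 1. The mvk-1 gene had CGTAAA and GACGCA and the fntb-1 gene had ACGCGC, in both cases without an IDR summit. Over the 6 chromosomes the 8-base word occurs 6292 times, of which 1600 lie in a promoter window, and 118 of the 6292 (1.88%) lay within 50 bp of an IDR summit.

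Other genes of the pathway and of the processes it feeds were described from 7 lists of 82 protein-coding genes in all. Of these, 4 held an IDR summit (4.88%, against 3.47% of all protein-coding genes), and 49 held any joined candidate (59.8%, against 43.0%). The lists were drawn up with earlier results of these data known, and no test was made on them. Candidates of these genes were counted in the joined list only, so that no candidate means none in that list.

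Among 5 other mevalonate enzymes, 1 held an IDR summit, against 3.47% of all protein-coding genes. In a list of 5 genes, a count of 1 says little about them. The gene with the summit was F32D8.13, which encodes phosphomevalonate kinase, the enzyme after mevalonate kinase. Its peak had a signal of 122 at rank 148 in the joined list, 91.7 in replicate 1 and 27.8 in replicate 2. The summit lay 834 bp upstream of F32D8.13 but 234 bp upstream of sec-61.G. That gene encodes the gamma subunit of the Sec61 protein channel and lies between them on the same strand. Of the words searched, only GACGCA lay within 50 bp of this summit, at 19.5 bp. Y48B6A.13, encoding diphosphomevalonate decarboxylase, had a joined candidate of signal 16.4 at rank 10849, and kat-1, encoding an acetyl-CoA acetyltransferase, one of 16.9 at rank 9593. No candidate lay at idi-1, which encodes isopentenyl diphosphate isomerase, or at T02G5.7, another acetyl-CoA acetyltransferase gene. Counting hmgs-1, hmgr-1, mvk-1 and fdps-1 with them, IDR summits fell in the windows of the genes for HMG-CoA synthase and phosphomevalonate kinase only. Each of these summits lay nearer to the annotated 5′ end of another gene, F25B4.4 or sec-61.G. With 1 gene per summit, neither hmgs-1 nor F32D8.13 remained.

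None of 8 other genes of prenylation and of the processing of prenylated proteins held an IDR summit, against 3.47% of all protein-coding genes. In a list this short, that count says little about these genes. They include Y48E1B.3, the beta subunit that pairs with fnta-1 in the type-1 geranylgeranyl transferase, which had no candidate in the joined list. In that list, then, neither fntb-1 nor Y48E1B.3, the genes for the partners of the shared alpha subunit, had a summit in its window. Among all protein-coding genes 43.0% had a joined candidate, so having none is common. M57.2 and ggtb-1, for the subunits of the Rab geranylgeranyl transferase, and rep-1, for its escort protein, had joined candidates at ranks 14039, 22614 and 15815. The CAAX protease gene fce-2 had one at rank 10376, and fce-1 and icmt-1, for the other protease and the methyltransferase, had none.

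Nor did any of 7 other ubiquinone genes hold an IDR summit, as with coq-1, against 3.47% of all protein-coding genes. With so low a share, a count of 0 in a list this short says little about these genes. The nearest was coq-3, an O-methyltransferase gene, with a joined candidate of signal 33.0 at rank 727, 780 bp upstream. The genes coq-2, coq-4 and clk-1 had no candidate, and coq-5, coq-6 and coq-8 had signals of 15.1, 18.4 and 13.7.

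The strongest peak of all 7 lists was at strm-1, 1 of 8 sterol handling genes, which encodes a sterol 4-C-methyltransferase. It was the only gene of that list with an IDR summit (12.5%, against 3.47% of all protein-coding genes). Its signal was 667 at rank 10 in the joined list, 470 at rank 10 in replicate 1 and 197 at rank 8 in replicate 2. The summit lay 751 bp upstream of strm-1 but 98 bp upstream of cic-1, the cyclin C gene, which runs the other way. CGTAAATC lay 3.5 bp from this summit and ACGCGC 12.5 bp from it. Among 6 lipid regulators there was no IDR summit, against 3.47% of all protein-coding genes. In a list this short, that count says little about these genes. No joined candidate lay at nhr-80, at sbp-1 or at mdt-15. Of these, sbp-1 encodes the worm's sterol regulatory element binding protein and mdt-15 a Mediator subunit. The others, scp-1, nhr-49 and atfs-1, had joined candidates at ranks 27455, 5272 and 2050. A joined candidate was found for 43.0% of all protein-coding genes, so lacking one is common.

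Of 35 genes for proteins that carry prenyl groups, mainly small GTPases, rab-18 alone held an IDR summit (2.86%, against 3.47% of all protein-coding genes). Its signal was 54.4 at rank 362 in the joined list and 40.7 at rank 363 in replicate 1, but 12.5 at rank 1122 in replicate 2, where it is outside the 542 strongest. The summit lay 53 bp inside rab-18, and in the windows of kbp-4 and par-2 as well. None of the words searched lay within 50 bp of this summit. The Ras gene let-60 had a joined candidate of signal 15.2, rho-1 one of 14.9, and cdc-42, ced-10 and the lamin gene lmn-1 had none. Of 13 genes for the assembly of dolichol-linked sugar chains, algn-14 alone held an IDR summit (7.69%, against the same 3.47%). It encodes a subunit of the N-acetylglucosamine transferase of this route, and its summit is the one described next. This summit lay 35 bp upstream of algn-14 and 120 bp upstream of M02B7.2. Its signal was 108.1 at rank 169 in the joined list, 78.7 in replicate 1 and 26.1 in replicate 2. CGTAAATC lay 27.5 bp from the algn-14 summit.

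**Figure D4:**
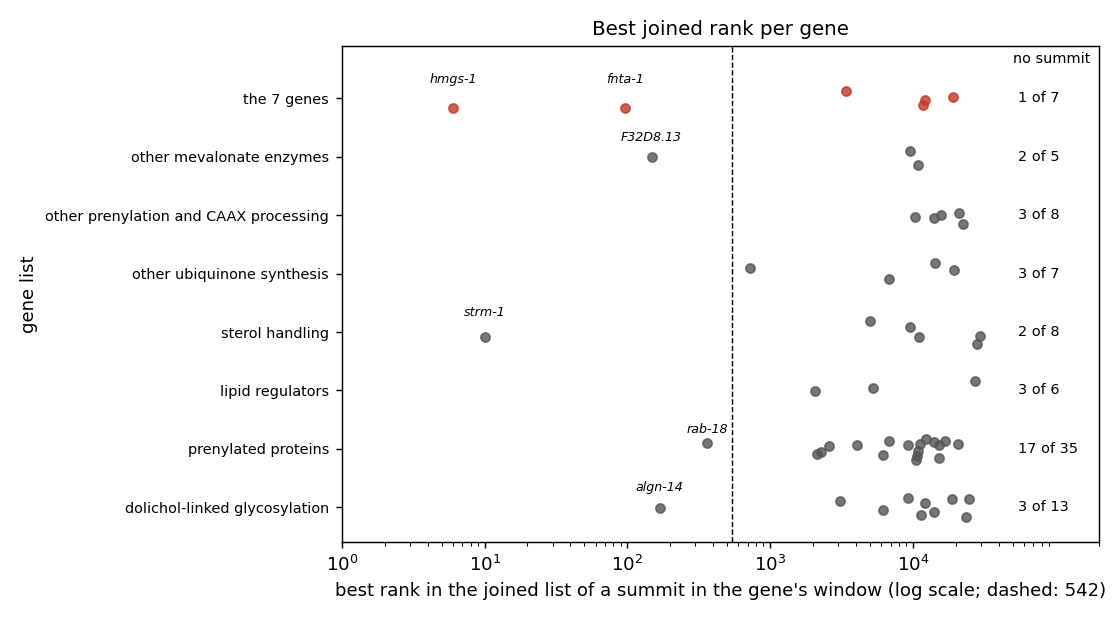
Best rank in the joined list of a summit in each gene's window (horizontal axis, log scale), with 1 point per gene, for the 7 genes in red and the 7 lists below them; the dashed line marks rank 542 and the numbers at the right give the genes with no summit. Of the 7 genes, hmgs-1 and fnta-1 lie left of the line, as do F32D8.13, strm-1, rab-18 and algn-14 in the lists.

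Over the members and the lists together, the IDR summits at hmgs-1, fnta-1, F32D8.13, strm-1, rab-18 and algn-14 each lay in the window of at least 1 further gene. The list gene had the nearest annotated 5′ end at rab-18 and algn-14, and another gene had it at hmgs-1, fnta-1, F32D8.13 and strm-1.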

How the data were processed

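The deposited data are narrowPeak lists on ce11 from 1 group of 2 biological replicates. They comprise 30000 candidates for each replicate, 30000 for the joined reads and the 542 IDR peaks. Per the notes deposited beside the sample files, a control file entered the calling of candidates. The control and the ce10 lists were not analysed here. Which caller and aligner made them is not given in the sources used here. The signal is column 7 as the authors deposited it, and read depth is unknown. Ranks are by signal within a list.

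Genes came from Ensembl release 115 on WBcel235, products and sequence from the RefSeq copy of that assembly. Coordinates are 1-based. Windows around 29784 5′ ends of 19973 protein-coding genes were used. The members, lists and words were chosen with earlier results of these data known, so counts are given without tests. Genes named are the members, genes sharing their IDR summits, up to 4 genes per list with an IDR summit, and genes at the IDR peaks ranked next to hmgs-1. Other genes were named after their values were seen. One acetyltransferase gene name of the list matched no protein-coding gene and was not counted.

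Alternatives were other windows, overlap in place of the summit, 1 gene per summit, RefSeq 5′ ends, the upper 50% of peaks, a longer joined list, each replicate alone and other word windows. Python 3.11.15, pandas 2.3.3, numpy 2.4.6, scipy 1.17.1 and matplotlib 3.10.9 were used, and the assignment of summits and words was tested on simulated data.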

Additional observations from a re-analysis of the deposited data

How the results depend on the processing

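The count of 2 of 7 genes, hmgs-1 and fnta-1, was the same in 8 of 9 alternatives and was 0 with 1 gene per summit. These summits lay 160 and 198 bp upstream at joined ranks 6 and 96, and the next member ranked 3427. Most alternatives therefore had little room to change the count. The share of all protein-coding genes was 1.89% with the upper 50% of IDR peaks, 2.25% with 1 gene per summit, 5.36% with the joined list cut at 1084 regions, and 2.77% to 3.46% with either replicate left out. List genes numbered 2 with the window of 500 bp upstream and 100 bp downstream, 2 with 1 gene per summit, 6 with 2000 bp upstream (algn-2 and coq-3 added), 5 with the joined list cut at 1084 regions (coq-3 added), and 3 to 4 with either replicate left out, where rab-18 was lost without replicate 1. The share of IDR windows with at least 1 of the 4 words was 34.7% within 25 bp of the summit, 62.7% within 100 bp, 66.1% in the upper 50% of peaks, and 38.9% to 51.7% with either replicate left out. The cause of these shifts was not tested. No paired analysis was possible because there is 1 group and no test.

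Read depth is unknown, so a candidate missing from a list does not show that the protein was absent there. With 2 replicates no spread of signal can be given, control reads were not analysed here, and the larvae are whole animals, so cells with and without binding cannot be told apart.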
